A study of Mus musculus with 9 samples.

Results

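Nocturnin (Noct) and 8 other output genes of the circadian clock (Dbp, Tef, Hlf, Nfil3, Ciart, Usp2, Bhlhe40 and Bhlhe41) were followed in mouse liver, 9 genes of the 54532 in the deposited count table. The genes were taken by name. They were chosen by their earlier measured values in these libraries, in which Noct had stood out in old control against young liver and clock genes had differed between livers. Values of that comparison are therefore given as a description, without p-values. All 9 genes passed the filter on low counts.

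RNA was sequenced from the livers of 9 wild-type male C57BL/6 mice on normal chow. The old Fabp4 shRNA group held mice of 20 months that had received AAV9-shRNA-Fabp4, an adeno-associated virus carrying a hairpin against the fatty acid carrier Fabp4, at 14 months, into the tail vein and the subcutaneous white fat. The old control group held mice of the same age given AAV9-shRNA-Neg, a control hairpin, in the same way and amount. The young group held mice of 8 weeks for which no injection is described, so that age and virus injection cannot be told apart in either comparison with young liver. Each group had 3 biological replicates, numbered 1, 3 and 6 in the old Fabp4 shRNA group, 1, 2 and 5 in the old control group, and 1 and 5 in the young group. The remaining young column carries a number that no young sample title has, and it is called the unnumbered young library. The sources used here give neither the promoter driving the hairpins nor the hour of tissue collection.

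Total counts ran from 14243344 to 17125440 per library. The summed level of 8 hepatocyte markers lay between 81666 and 175084 CPM (read counts scaled to library size with TMM factors). The RNA extraction label speaks of NRVMs, which commonly stands for rat ventricular myocytes. Of 6 heart muscle markers Myh6 and Nppa were at 0 in all 9 libraries, Tnnt2 and Tnni3 had a few counts in each, and the sum of the list lay between 0.458 and 4.60 CPM. The targeted gene Fabp4 stood at 11.2, 3.81 and 7.58 CPM in old Fabp4 shRNA livers, against 7.21, 13.6 and 10.9 CPM in old control livers, so that the groups overlapped. The unnumbered young library stood apart. It held 3349 CPM of 8 skeletal muscle markers, against at most 77.6 CPM in any other library, and its deposited count and FPKM columns hold different values. The reads recovered from its FPKM column held 8.05 CPM of the same markers, and for each gene the level from these reads is given beside the count column.

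The mammalian clock is a loop in which CLOCK and BMAL1 (encoded by Arntl) bind E-boxes and switch on their own inhibitors, the PER and CRY proteins. Output genes carry this rhythm to the rest of the cell. Dbp, Tef and Hlf encode related leucine zipper activators that bind D-boxes, and Nfil3 encodes a repressor that binds the same sites and tends to be expressed in the opposite phase. Ciart, Bhlhe40 and Bhlhe41 encode repressors acting on CLOCK and BMAL1 or on E-boxes, and Usp2 encodes a deubiquitinating enzyme. Noct encodes a protein related to deadenylases that acts as an NADP(H) phosphatase, and its transcript has a strong daily rhythm in mouse liver.

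Promoter windows were read from RefSeq (build GRCm38.p6), in which 8 of the 9 genes had an entry; Bhlhe40 had none. Each window covers 250 bases before to 50 bases after the transcription start. The E-box CACGTG, which reads the same on both strands, was found 3 times for Ciart and once each for Bhlhe41 and both Tef windows, against 7.15% of 32851 promoters of the same length that hold it. The core of the ROR element, TAGGTCA or TGGGTCA on either strand, was found for Nfil3, and 6.45% of promoters hold it. The cAMP response element TGACGTCA was found for Hlf, and 1.79% of promoters hold it. The D-box letters TTATGTAA or TTACGTAA, on either strand, were found for none of the 8 genes, and 1.06% of promoters hold them. The Noct, Dbp and Usp2 windows held none of these motifs.

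The 160 bases before the start are shown for Noct and for 4 genes whose levels are set against it below, 3 that carry an E-box and 1 that carries a ROR element core. Capitals mark the E-box CACGTG, or TGACCTA, the reverse complement of TAGGTCA, in Nfil3. Each is written from 5′ to 3′ on the strand of the gene, with its GRCm38.p6 position. The Noct stretch (chr3:51224287-51224446, plus strand) is shown because it lacks the E-box that the Ciart (chr3:95882229-95882388, minus strand), Tef (chr15:81802513-81802672, plus strand) and Bhlhe41 (chr6:145865421-145865580, minus strand) stretches hold. The Nfil3 stretch lies at chr13:52981040-52981199 on the minus strand.
Noct: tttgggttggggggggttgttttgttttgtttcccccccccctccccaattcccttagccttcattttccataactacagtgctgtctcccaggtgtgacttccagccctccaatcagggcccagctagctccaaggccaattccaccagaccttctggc
Ciart: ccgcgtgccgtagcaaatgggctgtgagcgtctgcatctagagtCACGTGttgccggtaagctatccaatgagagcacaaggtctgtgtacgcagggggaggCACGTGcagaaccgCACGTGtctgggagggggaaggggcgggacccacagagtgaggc
Tef: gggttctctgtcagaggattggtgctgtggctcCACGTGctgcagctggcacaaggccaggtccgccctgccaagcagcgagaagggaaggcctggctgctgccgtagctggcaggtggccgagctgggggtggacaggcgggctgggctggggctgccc
Bhlhe41: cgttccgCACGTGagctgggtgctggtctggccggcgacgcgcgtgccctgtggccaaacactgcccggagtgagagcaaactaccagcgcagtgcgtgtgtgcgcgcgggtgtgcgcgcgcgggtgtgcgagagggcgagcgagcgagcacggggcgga
Nfil3: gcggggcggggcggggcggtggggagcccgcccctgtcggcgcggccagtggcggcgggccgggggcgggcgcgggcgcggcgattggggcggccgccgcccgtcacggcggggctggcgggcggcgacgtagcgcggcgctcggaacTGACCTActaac
A match describes letters and is not evidence that a factor bound there.

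Noct was high in every old liver and low in every young liver. The gene (ENSMUSG00000023087) lies on chromosome 3 from 51224447 to 51251644 on the plus strand. Old Fabp4 shRNA replicates 1, 3 and 6 had 157, 240 and 84.3 CPM of Noct. Old control replicates 1, 2 and 5 had 228, 246 and 143 CPM. In young replicates 1 and 5 and the unnumbered young library it stood at 20.3, 16.1 and 31.2 CPM. The 2 old groups overlapped each other and neither overlapped the young group. The lowest old liver, old Fabp4 shRNA replicate 6, had 2.70 times the level of the highest young library. With the recovered reads the unnumbered young library stood at 14.7 CPM and this ratio was 4.18. Gm38357, which overlaps Noct on the same strand, had between 0 and 6 counts per library, against 211 to 4346 counts for Noct.

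Old Fabp4 shRNA livers averaged 160 ± 77.8 CPM of Noct and old control livers 206 ± 55.1 CPM (SD, n = 3 each). The log2 fold change was -0.36 ± 0.37 (SE), with a 95% interval from -1.16 to 0.44. This difference was not called (edgeR unadjusted p = 0.349, adjusted p = 0.900). Against the young mean of 22.5 ± 7.78 CPM (SD, n = 3), Noct rose in old Fabp4 shRNA livers by 2.83 ± 0.40 on the log2 scale (edgeR quasi-likelihood test, two-sided, adjusted p = 0.0287 over 14025 genes). The young libraries also took part in the comparison that chose the gene, so this test is not independent of the choice. Old control liver against young liver gave 3.19 ± 0.40 on the log2 scale, given without a p-value. The call in old Fabp4 shRNA against young liver was lost without old Fabp4 shRNA replicate 3, any 1 of the 3 old control replicates, or young replicate 1 or 5 (edgeR adjusted p from 0.0533 to 0.255), while the log2 fold change stayed between 2.42 and 3.14 in these fits and in the 3 others that left out a library. It was also lost with a minimum of 10 counts in every library, with limma-voom, in a fit to the 6 libraries compared, and on log2(FPKM + 1) (adjusted p from 0.0557 to 0.121).

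**Figure D1:**
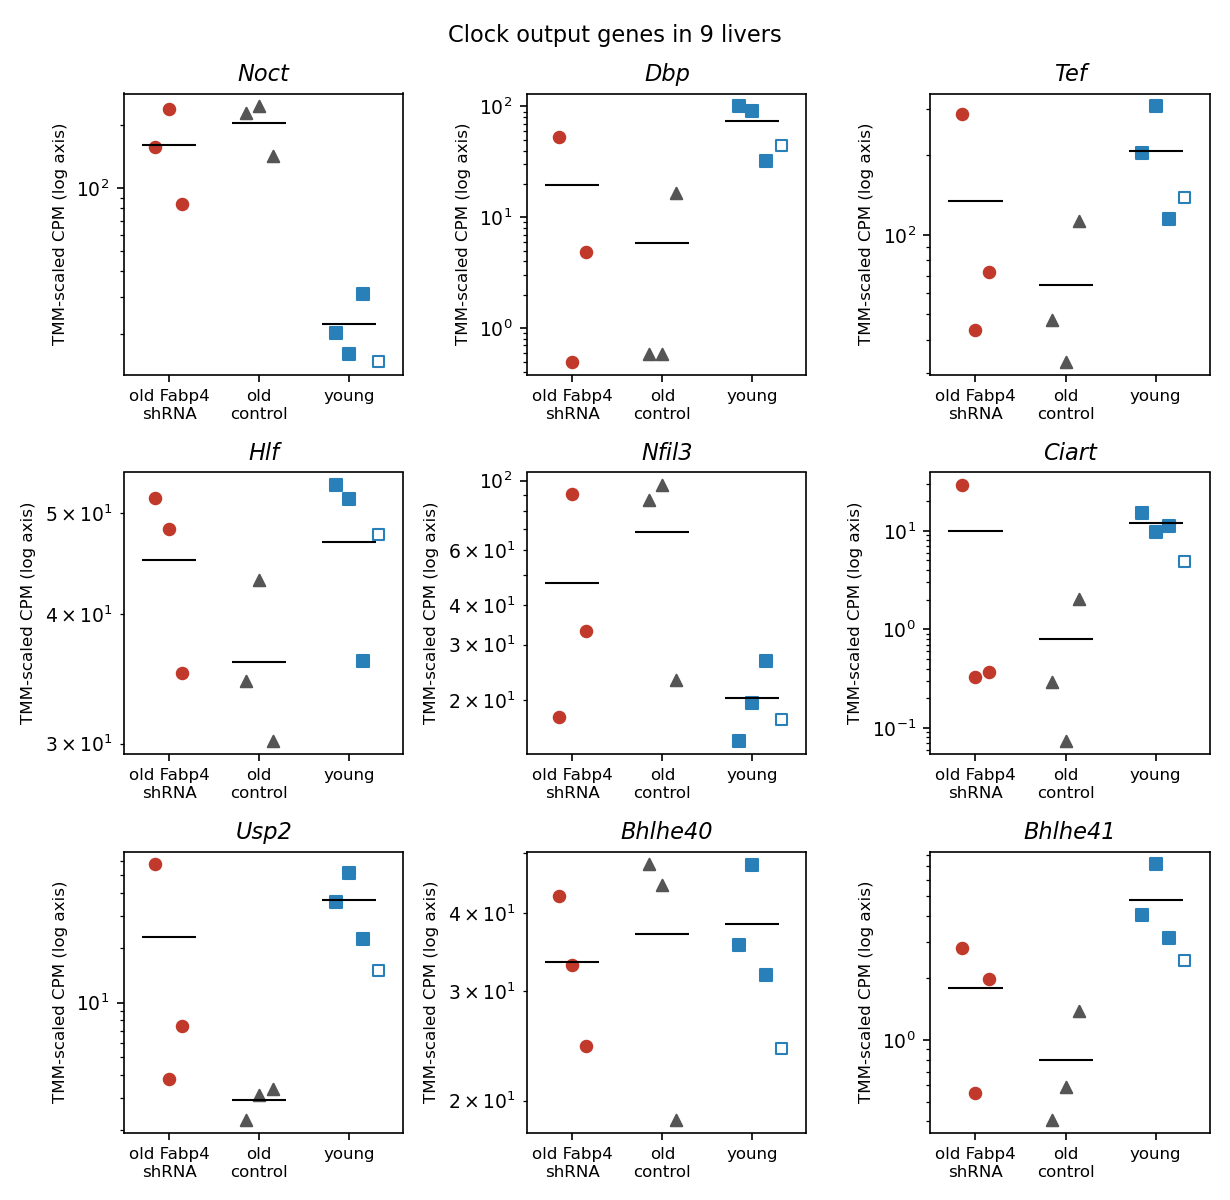
TMM-scaled CPM of the 9 clock output genes on log axes, with 1 point per liver, old Fabp4 shRNA at left, old control in the middle and young at right. Horizontal lines are group means of 3 libraries and the open square is the unnumbered young library from recovered reads. Noct is between 84.3 and 246 CPM in the 6 old livers and between 16.1 and 31.2 CPM in the young ones, while Dbp, Tef, Ciart and Usp2 of 1 old Fabp4 shRNA liver lie near the young points.

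Dbp, the activator with the widest daily swing of its family, gave another picture. The gene lies on chromosome 7 from 45705088 to 45710203. Old Fabp4 shRNA replicates 1, 3 and 6 had 53.5, 0.496 and 4.86 CPM of Dbp, and old control replicates 1, 2 and 5 had 0.581, 0.589 and 16.4 CPM. Young livers had 100, 90.1 and 32.4 CPM, the last of them in the unnumbered library, where the recovered reads gave 44.1 CPM. Old Fabp4 shRNA replicate 1 was therefore in the range of young livers, while 1 liver of its own group and 2 old control livers were near 0.5 CPM, on 8 to 10 counts each. Old Fabp4 shRNA against old control gave 1.73 ± 1.77 on the log2 scale (edgeR adjusted p = 0.900), and against young -1.92 ± 1.73 (edgeR adjusted p = 0.764), which became -4.78 without old Fabp4 shRNA replicate 1 (edgeR adjusted p = 0.357). Dbp overlaps Sphk2 on the opposite strand, and Sphk2 had 480 to 1166 counts in every library.

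Tef, the second activator of the family (chromosome 15, 81802421 to 81826863), moved the same way over a smaller range. Its levels were 286, 43.7 and 72.0 CPM in old Fabp4 shRNA livers and 47.4, 33.0 and 113 CPM in old control livers. Young livers had 204, 307 and 115 CPM, with 139 CPM for the unnumbered library from recovered reads. The 2 old groups overlapped each other, and the old control livers all lay below the young ones, the nearest pair being 113 and 115 CPM. Old Fabp4 shRNA against old control gave 1.05 ± 0.75 on the log2 scale (edgeR adjusted p = 0.840). Against young it gave -0.64 ± 0.75 (edgeR adjusted p = 0.817), which became -1.85 without old Fabp4 shRNA replicate 1 (edgeR adjusted p = 0.253).

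Hlf, the third activator (chromosome 11, 90336536 to 90390895), hardly varied. Its levels were 51.8, 48.3 and 35.1 CPM in old Fabp4 shRNA livers, 34.5, 43.1 and 30.2 CPM in old control livers and 53.2, 51.6 and 36.0 CPM in young livers. All 3 groups overlapped, and the highest of the 9 libraries had 1.76 times the lowest. With the recovered reads, at 47.7 CPM in the unnumbered young library, old control livers lay below all young livers. The log2 fold change of old Fabp4 shRNA against old control was 0.33 ± 0.23 (edgeR adjusted p = 0.831).

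Nfil3, the repressor at D-boxes (chromosome 13, 52967209 to 52981073), ran opposite to Dbp and Tef. Old Fabp4 shRNA replicates 1, 3 and 6 had 17.6, 90.4 and 33.1 CPM of Nfil3. Old control replicates 1, 2 and 5 had 86.7, 96.6 and 23.1 CPM, and young livers 14.8, 19.5 and 26.7 CPM. The 3 old livers with the lowest Dbp had the 3 highest Nfil3 levels, and old Fabp4 shRNA replicate 1 was in the young range. Old control replicate 5 was in that range too by the count column of the unnumbered library, but above every young liver with the recovered reads, at 17.4 CPM. Old Fabp4 shRNA against old control gave -0.55 ± 0.66 on the log2 scale (edgeR adjusted p = 0.914), and against young 1.21 ± 0.67 (edgeR adjusted p = 0.613).

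Ciart, the inhibitor of CLOCK and BMAL1 also called Chrono (chromosome 3, 95878503 to 95882251), varied widely within the old groups. Its counts were 474, 6 and 7 in old Fabp4 shRNA livers, or 28.9, 0.331 and 0.366 CPM. Old control livers had 5, 1 and 32 counts, or 0.291, 0.0736 and 2.02 CPM, of which the second is under the floor of 3 counts (0.192 CPM in that library). Young livers had 205, 126 and 177 counts, or 15.2, 9.62 and 11.3 CPM, with 4.85 CPM for the unnumbered library from recovered reads. Old Fabp4 shRNA replicate 1 exceeded every young liver, whereas the other 2 livers of its group lay among the old controls. Old Fabp4 shRNA against old control gave 3.60 ± 1.84 on the log2 scale (edgeR adjusted p = 0.764). Without old Fabp4 shRNA replicate 1 the log2 fold changes of Ciart, Dbp and Tef in this comparison turned to -1.18, -1.12 and -0.15, none called. Against young liver Ciart gave -0.29 ± 1.55 (edgeR adjusted p = 0.969), which became -5.08 without that replicate (edgeR adjusted p = 0.109).

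Usp2, the deubiquitinating enzyme (chromosome 9, 44067021 to 44095627), was the 1 gene of the 9 whose old Fabp4 shRNA and old control livers did not overlap. It stood at 57.4, 3.81 and 7.42 CPM in old Fabp4 shRNA livers, against 2.27, 3.09 and 3.35 CPM in old control livers. Young livers had 35.6, 51.2 and 22.2 CPM, with 14.9 CPM for the unnumbered library from recovered reads. The lowest old Fabp4 shRNA liver and the highest old control liver were close, and old Fabp4 shRNA replicate 1 was again at the young level. Of all tested genes, 6.02% had every old Fabp4 shRNA liver above every old control liver. The log2 fold change was 2.98 ± 0.98 (unadjusted p = 0.0168, edgeR adjusted p = 0.728), and it was 0.96 without old Fabp4 shRNA replicate 1 (edgeR adjusted p = 0.449). Without old Fabp4 shRNA replicate 1, Usp2 was called lower in old Fabp4 shRNA than in young liver, at -2.69 on the log2 scale (edgeR adjusted p = 0.0266), against -0.67 ± 0.88 in the fit with all 9 libraries (edgeR adjusted p = 0.837).

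The E-box repressors Bhlhe40 and Bhlhe41, also called DEC1 and DEC2, differed from each other. Bhlhe40 (chromosome 6, 108660629 to 108666925) stood at 42.6, 33.0 and 24.5 CPM in old Fabp4 shRNA livers, at 47.9, 44.4 and 18.6 CPM in old control livers and at 35.5, 47.7 and 31.9 CPM in young livers, with all 3 groups overlapping; the recovered reads gave 24.3 CPM for the unnumbered library. Bhlhe41 (chromosome 6, 145858243 to 145865558) stood at 2.81, 0.552 and 1.99 CPM in old Fabp4 shRNA livers, at 0.407, 0.589 and 1.39 CPM in old control livers and at 4.07, 7.18 and 3.13 CPM in young livers. Bhlhe41 rested on 7 to 94 counts per library, and all 6 old livers lay below all young libraries. With the recovered reads, at 2.43 CPM in the unnumbered young library, the old Fabp4 shRNA and young ranges overlapped. Against young liver, old Fabp4 shRNA gave -1.42 ± 0.60 on the log2 scale (edgeR adjusted p = 0.525), and against old control 1.15 ± 0.63 (edgeR adjusted p = 0.766).

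Counted together, none of the 9 genes was called in old Fabp4 shRNA against old control liver, where 0% of all tested genes were called. At an unadjusted p under 0.05, 946 genes and, of the 9, Usp2 passed in this comparison. DESeq2 called 7 genes there and limma-voom 0, none of them among the 9. Against young liver, old Fabp4 shRNA liver gave 1 call of 9, Noct, higher, where 0.057% of all tested genes were called. The same young libraries took part in the choice of Noct, so this count is not independent of the choice and nothing is read from it. In old control against young liver 0.0357% of all tested genes were called, Noct being 1 of 9 members; the choice of the genes used that comparison, so that this count is fixed by the choice and nothing is read from it.

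Ranges of the groups gave the same kind of count. In old Fabp4 shRNA against old control liver, Usp2 was all higher, none of the 9 was all lower (5.67% of tested genes were), and 8 overlapped. In old Fabp4 shRNA against young liver, Noct was all higher, as were 6.79% of tested genes, and Bhlhe41 was all lower, as were 6.67%; 7 overlapped. In old control against young liver, Noct was all higher (8.89% of tested genes) and Dbp, Tef, Ciart, Usp2 and Bhlhe41 were all lower (8.26%), given as a description. Without the unnumbered young library, Nfil3 joined the higher genes and Hlf the lower genes in that comparison, and Dbp joined Bhlhe41 below young liver in the old Fabp4 shRNA group. With the recovered reads the same 8 genes did not overlap in old control against young liver, and Noct alone did not overlap in old Fabp4 shRNA against young liver. The share of all tested genes was not computed under either of these settings, and ranges separate more readily with fewer young libraries. Nothing is therefore read from these counts, and the comparison of old control with young liver also chose the genes.

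**Figure D2:**
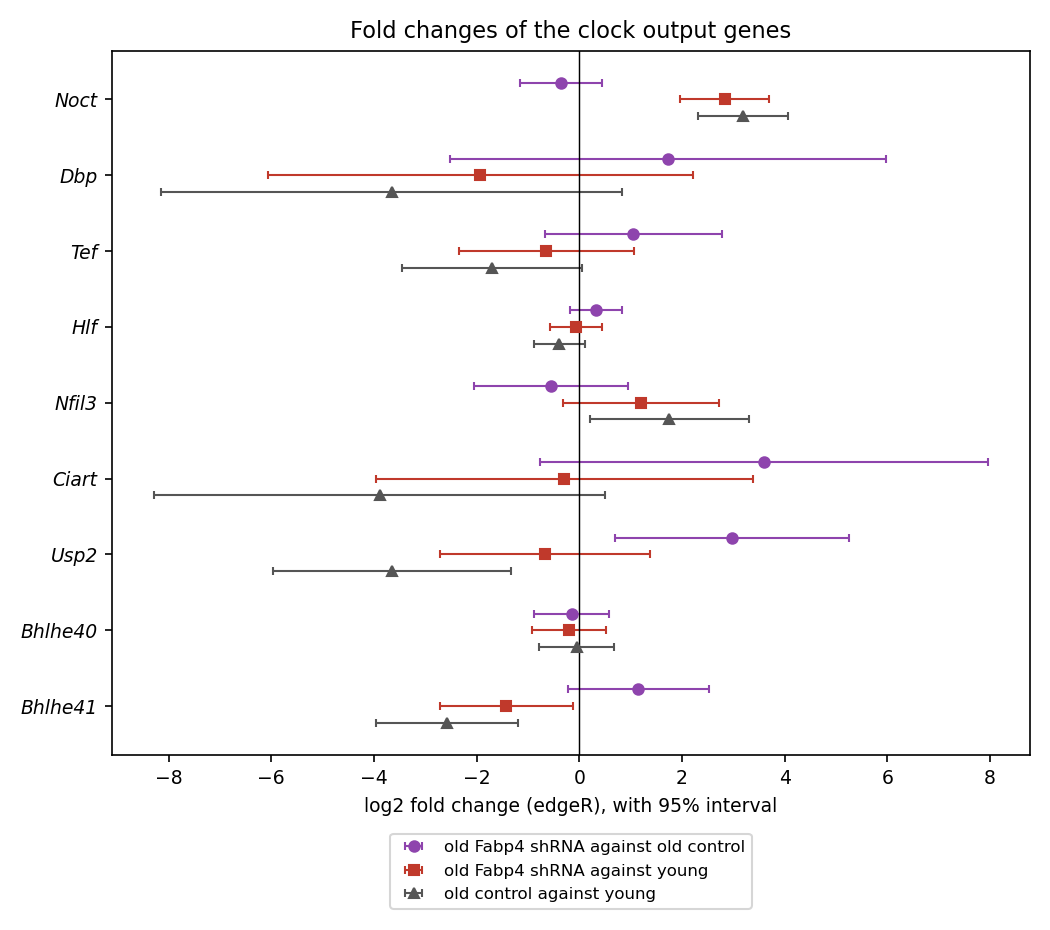
Log2 fold changes of the 9 genes from edgeR, with 95% intervals, for old Fabp4 shRNA against old control (circles), old Fabp4 shRNA against young (squares) and old control against young (triangles, a description only). The intervals of Noct are short and lie above 0 in both comparisons with young liver, from 1.97 to 3.69 for old Fabp4 shRNA, while the interval of Ciart in old Fabp4 shRNA against old control runs from -0.77 to 7.96.

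The spread between livers of one group differed from gene to gene. The genes were chosen partly because clock genes had differed between these livers, so a wide spread is a description and not a finding. The SD of log2 CPM in old Fabp4 shRNA livers was 3.43 for Ciart, 3.22 for Dbp, 2.02 for Usp2 and 1.40 for Tef, against 0.76 for Noct, 0.40 for Bhlhe40 and 0.30 for Hlf. The median over all tested genes in that group was 0.37, and 13.9% of them had a spread at least as wide as that of Noct. In old control livers Dbp had 2.62 and Usp2 0.28, against 0.42 for Noct and a median of 0.32. In young livers Dbp had 0.90 and Noct 0.48, against a median of 0.33. Over all 9 libraries Dbp, Ciart and Usp2 had the widest spread of the 9 genes, at 3.09, 2.73 and 1.86, followed by Noct at 1.58.

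The level of Noct relative to the other outputs was compared within each library, which removes library scaling. The log2 ratio of Noct to Dbp was 1.55, 8.92 and 4.12 in old Fabp4 shRNA livers and 8.61, 8.71 and 3.12 in old control livers. Young livers had -2.31, -2.48 and -0.06. Every old liver therefore held more Noct than Dbp reads and every young liver fewer. The log2 ratio of Noct to Hlf, the steady gene, was 1.60, 2.31 and 1.27 in old Fabp4 shRNA livers and 2.72, 2.51 and 2.24 in old control livers, against -1.39, -1.68 and -0.21 in young livers. For all 8 other genes the ratio was higher in each old Fabp4 shRNA liver than in each young library, and the old Fabp4 shRNA and old control ranges overlapped for all 8. These ratios share Noct, which itself did not overlap between old and young livers, and are not separate results. The share of all tested genes whose ratio to Noct separates in this way was not computed, so nothing is read from the count of 8. Ratios of read counts between genes do not allow for transcript length.

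Deposited FPKM, which divides by length, allowed levels to be ordered between genes within a library. The unnumbered young library was left out, since its 2 tables differ. Noct was at 13.9, 21.7 and 7.72 FPKM in old Fabp4 shRNA livers, at 20.0, 22.3 and 12.8 FPKM in old control livers and at 1.85 and 1.47 FPKM in young livers. It ranked 2 or 3 of the 9 genes in each of the 6 old livers and 8 in both young livers. Nfil3 was first in 4 old livers, with 43.1 and 15.9 FPKM in old Fabp4 shRNA replicates 3 and 6 and 40.1 and 46.2 FPKM in old control replicates 1 and 2. Tef was first in the other 2 old livers, with 34.4 FPKM in old Fabp4 shRNA replicate 1 and 13.8 FPKM in old control replicate 5. Dbp and Tef were the first and second genes in both young livers, with 32.6 and 29.2 FPKM of Dbp and 25.2 and 37.9 FPKM of Tef.

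**Figure D3:**
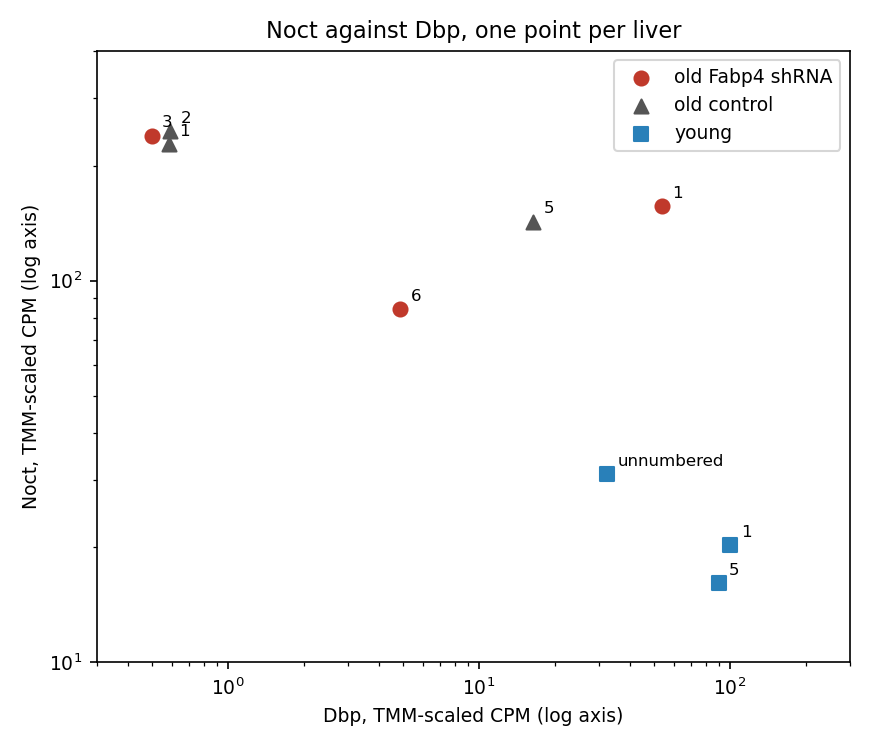
Noct against Dbp in TMM-scaled CPM on log axes, with 1 point per liver marked by its replicate number (circles old Fabp4 shRNA, triangles old control, squares young). Old Fabp4 shRNA replicate 1 has 53.5 CPM of Dbp, more than the 32.4 CPM of the unnumbered young library, and 157 CPM of Noct, while no young library exceeds 31.2 CPM of Noct.

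Old Fabp4 shRNA replicate 1 set Noct apart from 5 of the other outputs. Its Dbp, Tef, Ciart, Usp2 and Nfil3 lay within the range of the young livers or beyond it on the side away from the old controls, yet its Noct was 5.03 times that of the highest young library. Its Bhlhe41, at 2.81 CPM, was like Noct on the old side of the 3 young count columns, but above the 2.43 CPM of the recovered reads. Among old livers Noct ran opposite to Dbp only in part. The 3 with the lowest Dbp (old Fabp4 shRNA replicate 3 and old control replicates 1 and 2) had the 3 highest Noct levels, from 228 to 246 CPM. The other 3 were old Fabp4 shRNA replicate 1, old control replicate 5 and old Fabp4 shRNA replicate 6. There Noct, at 157, 143 and 84.3 CPM, fell in the same order as Dbp, at 53.5, 16.4 and 4.86 CPM. These orders were seen in the values and were not tested.

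Likeness between profiles was measured as the root-mean-square difference of log2 CPM after centring each gene on its mean over the 9 libraries, so that 0 means identical profiles. The pairs most alike were Hlf and Bhlhe40 at 0.35, both nearly flat, and Tef and Bhlhe41 at 0.53. Dbp was nearest to Ciart, at 1.06. Noct was nearest to Nfil3, at 1.03, and farthest from Dbp, at 4.21, the largest difference of any pair. When 1 gene of a pair was inverted, Tef and Nfil3 came to 0.41 and Noct and Bhlhe41 to 0.68. All values rest on the same 9 libraries and are descriptions.

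Among all tested genes, those nearest to Noct over the 9 libraries were Olfr701 (0.47), Cdh19 (0.59), Igkv10-96 (0.61), Gm15401 (0.64) and Igkv5-39 (0.64). All 5 had low counts, with at most 123 in any library and at most 9 in any young library. Gm15401 had 50, 71 and 53 counts in old Fabp4 shRNA livers and 91, 83 and 123 in old control livers, against 2, 4 and 4 in young livers, and it was called higher in old Fabp4 shRNA than in young liver, at 3.74 ± 0.44 on the log2 scale (edgeR adjusted p = 0.0142). It overlaps Gm37969 and Tcf7l1 on the opposite strand, so its counts are uncertain where strand was not used. Those nearest to Dbp were Per3 (1.33), a member of the core loop, Cyp7a1 (1.41), the rate-limiting enzyme of bile acid synthesis, and Blm (1.48), a DNA helicase. Cyp7a1 stood at 156, 16.7 and 21.4 CPM in old Fabp4 shRNA livers and at 20.5, 8.09 and 96.6 CPM in old control livers, against 204, 224 and 79.8 CPM in young livers. Old Fabp4 shRNA replicate 1 and old control replicate 5 were thus the highest old livers for Cyp7a1 as for Dbp.

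The core loop split the livers in the same way. Of its 15 genes, 0 were called in any of the 3 comparisons, with a median log2 fold change of 0.08 in old Fabp4 shRNA against old control liver, against -0.01 over all tested genes. Arntl, which encodes BMAL1, stood at 0.916, 28.7 and 8.25 CPM in old Fabp4 shRNA livers and at 23.5, 19.1 and 6.75 CPM in old control livers, against 3.25, 0.916 and 4.85 CPM in young livers. Per3 stood at 42.8, 0.938 and 2.09 CPM in old Fabp4 shRNA livers and at 2.15, 0.809 and 5.56 CPM in old control livers, against 21.4, 34.0 and 5.94 CPM in young livers. Npas2, a relative of CLOCK, stood at 0.611, 7.50 and 0.784 CPM in old Fabp4 shRNA livers and at 8.89, 6.62 and 2.78 CPM in old control livers, against 0.222, 1.14 and 0.447 CPM in young livers. Old Fabp4 shRNA replicate 1 was within or close to the young values for all 3 of these genes, and old Fabp4 shRNA replicate 3 was with old control replicates 1 and 2. The hour of collection and its part in these values were not tested, and hour and group cannot be told apart from the sources used here.

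**Figure D4:**
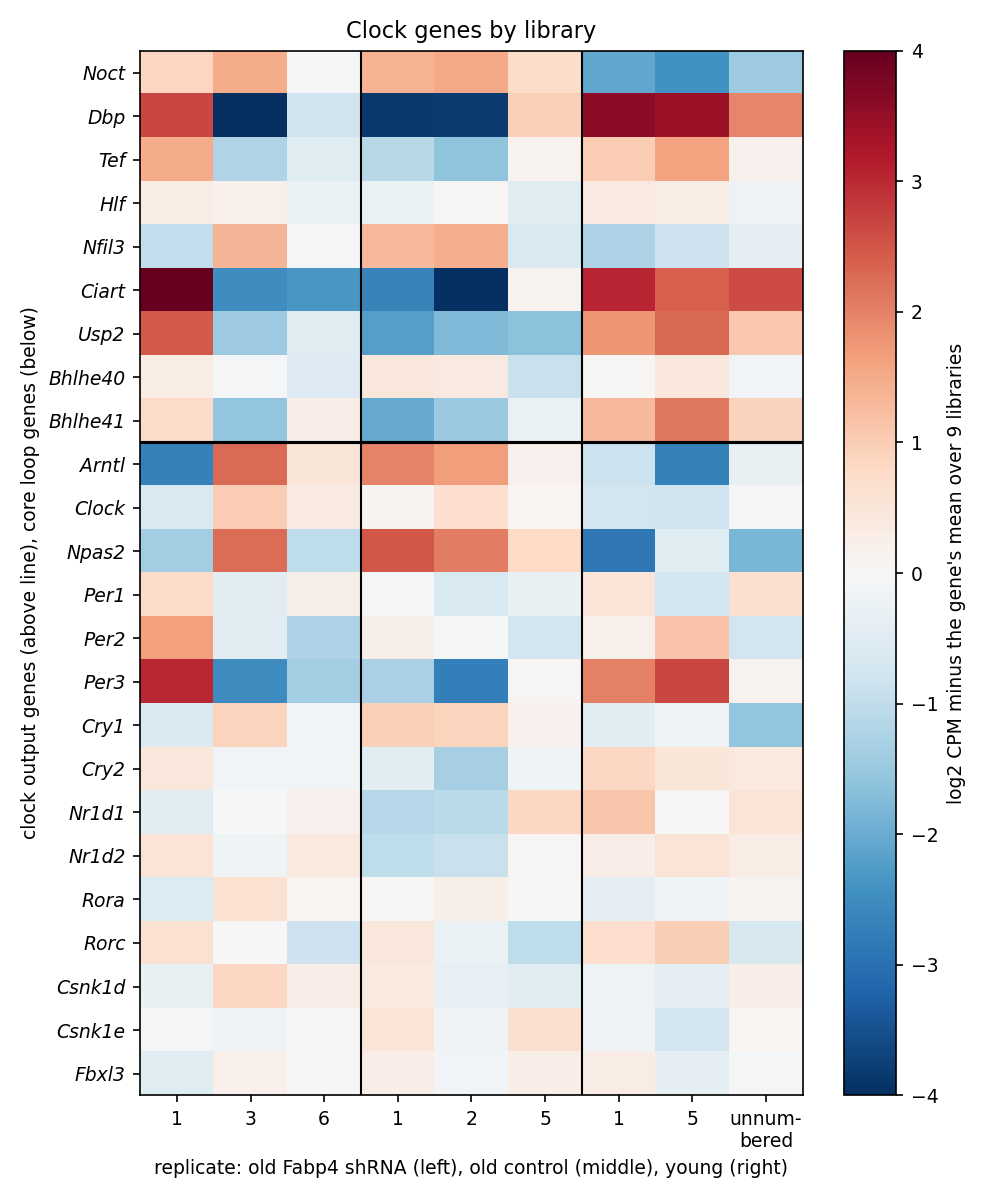
Log2 CPM of the 9 output genes (above the line) and 15 core loop genes (below it), each minus its own mean over 9 libraries, with colours capped at 4 on either side. Columns are livers, old Fabp4 shRNA at left, old control in the middle and young at right. The first column resembles the young columns for Dbp, Ciart, Usp2, Arntl and Per3 but not for Noct.

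The other core loop genes named by the smallest p were Cry2, Nr1d2 and Cry1, whose products repress the loop. Between the 2 old groups Cry2 gave 0.67 ± 0.29 on the log2 scale (edgeR adjusted p = 0.728), Nr1d2 0.82 ± 0.29 (edgeR adjusted p = 0.728) and Cry1 -0.51 ± 0.42 (edgeR adjusted p = 0.865). None passed the test.

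Genes that depend on Dbp, Tef and Hlf in mouse liver were listed as a readout of that family, and 10 of the 11 listed were tested. In old Fabp4 shRNA against old control liver 0 were called, 9 were on the higher side and 1 on the lower. Their median log2 fold change was 0.46, against -0.01 over all tested genes. The higher side can rest on old Fabp4 shRNA replicate 1, as for Cyp7a1 and Upp2, picked after their values were seen. Upp2 stood at 622 CPM in that liver. In old Fabp4 shRNA replicates 3 and 6 it stood at 23.7 and 38.7 CPM, below every old control liver (49.0 to 149 CPM). In old Fabp4 shRNA against young liver 0 were called, with 3 on the higher side and 7 on the lower. The median was -0.35, against 0.02 over all tested genes. Por, the electron donor of cytochrome P450 enzymes, stood at 691, 324 and 578 CPM in old Fabp4 shRNA livers and at 290, 270 and 374 CPM in old control livers, against 444, 677 and 597 CPM in young livers. Its log2 fold change between the old groups was 0.77 ± 0.29 (edgeR adjusted p = 0.728). Alas1, the first enzyme of haem synthesis, gave 0.73 ± 0.35 (edgeR adjusted p = 0.741), Ces2a, a carboxylesterase, 0.25 ± 0.24 (edgeR adjusted p = 0.896) and Cyp3a11 0.23 ± 0.33 (edgeR adjusted p = 0.930).

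Of 14 other liver transcripts with a known daily rhythm, 0 were called in any comparison. Wee1, a cell cycle kinase driven by E-boxes, gave 2.06 ± 0.84 on the log2 scale in old Fabp4 shRNA against old control liver (edgeR adjusted p = 0.728). It stood at 7.45, 1.77 and 2.30 CPM in old Fabp4 shRNA livers, against 0.814, 0.589 and 1.33 CPM in old control livers. The groups did not overlap, and 6.02% of all tested genes had every old Fabp4 shRNA liver above every old control liver. The old control values rest on 14, 8 and 21 counts, and old Fabp4 shRNA replicate 1 was well above the other livers of its group. Tspan4 gave 0.43 ± 0.21 (edgeR adjusted p = 0.741), Coq10b 0.61 ± 0.30 (edgeR adjusted p = 0.741) and Tubb2a, a tubulin, -0.15 ± 0.78 (edgeR adjusted p = 0.985).

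Relatives of Noct among the deadenylases, with the NADP kinases Nadk and Nadk2, made a list of 11 genes, of which 0 were called in any comparison. Their median log2 fold change in old Fabp4 shRNA against young liver was 0.11, against 0.02 over all tested genes. The 4 with the smallest p, Parn, Cnot6, Cnot6l and Pde12, lay between -0.30 and 0.30 in that comparison.

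Noct is also known to respond to acute stimuli, so genes of the immediate early response and of glucocorticoids and fasting were set beside it. Of 14 tested immediate early genes, 0 were called in any comparison. In old Fabp4 shRNA against young liver 9 were on the higher side and 5 on the lower. Their median log2 fold change was 0.21, against 0.02 over all tested genes. The 4 with the smallest p over the 3 comparisons, given next, were all on the higher side. Fos gave 1.74 ± 0.57 on the log2 scale in old Fabp4 shRNA against young liver (edgeR adjusted p = 0.447), Nr4a1 1.75 ± 0.66 (edgeR adjusted p = 0.495), Egr1 1.31 ± 0.63 (edgeR adjusted p = 0.574) and Dusp1 1.27 ± 0.55 (edgeR adjusted p = 0.554). Summed over the 16 listed genes, the level was 150 to 345 CPM in old Fabp4 shRNA livers, 226 to 409 CPM in old control livers and 173 to 291 CPM in young livers. Of 14 glucocorticoid and fasting genes, 0 were called in any comparison. Mt2, a metallothionein, gave -2.76 ± 0.66 in old Fabp4 shRNA against young liver (edgeR adjusted p = 0.314), and Mt1 -1.80 ± 0.81 (edgeR adjusted p = 0.560). Ppargc1a, a coactivator of the fasting response, gave -0.78 ± 0.32 (edgeR adjusted p = 0.521), and G6pc, the last enzyme of glucose production, 0.93 ± 0.47 (edgeR adjusted p = 0.583).

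Summed levels of the markers of some other cell types did not overlap between old and young livers, although no listed marker was called in any of the 3 comparisons. The sum of 6 endothelial markers was 89.1 to 186 CPM in old Fabp4 shRNA livers and 98.3 to 186 CPM in old control livers, against 69.3 to 87.4 CPM in young livers. The sum of 7 stellate cell and cholangiocyte markers was 170 to 235 CPM in old Fabp4 shRNA livers and 165 to 325 CPM in old control livers, against 104 to 130 CPM in young livers. The sum of 5 red blood cell genes ran the other way, at 170 to 359 CPM in old Fabp4 shRNA livers and 188 to 328 CPM in old control livers, against 520 to 1025 CPM in young livers. The sum of 7 lymphocyte markers was 55.5 to 142 CPM in old Fabp4 shRNA livers, 150 to 343 CPM in old control livers and 60.3 to 74.3 CPM in young livers, and the sum of 6 adipocyte markers was 33.2 to 43.2 CPM in old Fabp4 shRNA livers, 19.3 to 93.2 CPM in old control livers and 5.25 to 23.6 CPM in young livers. Cidec, a lipid droplet protein, made up most of the adipocyte sum in every library, with 31.3, 39.7 and 41.0 CPM in old Fabp4 shRNA livers. Plin1 and Lep were at 0 in every library other than old control replicate 2. The sums for 6 Kupffer cell and macrophage markers (96.1 to 198 CPM in old Fabp4 shRNA livers, 160 to 568 CPM in old control livers, 141 to 238 CPM in young livers) overlapped between all groups. The sums for 5 neutrophil markers were 5.85 to 14.9 CPM in old Fabp4 shRNA livers, 16.7 to 54.6 CPM in old control livers and 11.8 to 22.7 CPM in young livers. The sum of 8 hepatocyte markers was 81666 to 96264 CPM in old Fabp4 shRNA livers, 93317 to 143949 CPM in old control livers and 114556 to 175084 CPM in young livers. The part of these cells in the level of Noct was not tested, and fewer cells of a type and less RNA per cell cannot be told apart in whole tissue.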

How the data were processed

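The submitters' processing notes name HISAT2 and GRCm38.p6. How reads were counted, with or without strand, and which gene lengths were used is not given in the sources used here. Raw counts per gene, as deposited, were tested with edgeR 4.0.16 (R 4.3.3; filterByExpr by group, TMM factors from 0.825 to 1.15, robust quasi-likelihood fit of 3 group means over 9 libraries, 6 residual degrees of freedom, biological coefficient of variation 0.320). The filter left 14025 genes, and a call needs an adjusted p (Benjamini-Hochberg) under 0.05. The FPKM values deposited by the authors, scaled to gene length and library size, were used to compare levels between genes and, in limma 3.58.1, as an alternative. CPM are TMM-scaled, and the detection floor of 3 counts equals 0.175 to 0.211 CPM; floors cover counting error only.

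In 8 columns the FPKM were a fixed multiple of the counts for 100% of 10483 genes with at least 20 counts (relative tolerance 0.001). In the unnumbered young column, placed in its group by its letter, this held for 0.229%. Its reads were recovered from the FPKM: of 17877 values 100% were whole within 0.05 reads, and 226 genes were not recovered. With them edgeR called 0, 57 and 7 genes in old Fabp4 shRNA against old control, old Fabp4 shRNA against young, and old control against young. No column was left unmapped (0 columns).

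The members and gene lists were chosen with earlier results of these data known. Named genes are the members, Fabp4, the 5 genes nearest in profile to Noct and the 3 nearest to Dbp, and from each pathway list the 4 with the smallest p; Arntl, Npas2 and Per3 are shown as core loop genes beside them. Positions come from GENCODE mouse release M21, which holds 54409 of the 54532 identifiers. The alternatives were other scalings and filters, DESeq2 1.42.0, limma-voom, fits to 6 libraries, log2 FPKM with a pseudocount of 1 or 0.1, a block for animal number, and fits without 1 library at a time. The edgeR step was tested on simulated data.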

Additional observations from a re-analysis of the deposited data

How the results depend on the processing

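The log2 fold change of Noct in old Fabp4 shRNA against young liver kept its direction in all 20 alternatives but lost its call at 2.83 with at least 10 counts in every library, 2.75 with limma-voom, 2.83 with the 6 libraries compared and 2.49 on log2(FPKM + 1), so that 0 members were called in each of these; leaving out libraries gave 2.42 to 3.14, and 0 to 2 members called. In old control against young liver 2 members were called without a filter, 3 with DESeq2, 2 with the 6 libraries compared and 0 to 2 when libraries were left out; that comparison chose the members, so these counts support nothing. Leaving out a library changed the sign of some log2 fold changes that were not called. In old Fabp4 shRNA against old control liver they ran from -1.12 to 5.05 for Dbp, from -0.15 to 1.74 for Tef and from -1.18 to 5.63 for Ciart, lowest without old Fabp4 shRNA replicate 1 and highest without old control replicate 5, and from -0.47 to 0.081 for Bhlhe40. Against young liver they ran from -0.22 to 0.093 for Hlf and from -5.08 to 0.28 for Ciart. The causes were not tested.

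Genes called over the whole table in old Fabp4 shRNA against old control, old Fabp4 shRNA against young and old control against young numbered 0, 8 and 5 in the reported fit, 7, 124 and 168 with DESeq2, 8, 94 and 137 without a filter, and 0, 57 and 7 with the recovered reads (an alternative chosen after seeing the data). The same animal numbers appear in several groups, but deviations of same-numbered libraries correlated only from -0.05 to 0.11, so the numbers were not taken as pairs. With them as a block, which left 1 residual degree of freedom, 2, 1 and 4 members and 73, 23 and 158 genes were called, among the members Tef (2.42) and Usp2 (4.65) in old Fabp4 shRNA against old control liver. The block reversed Bhlhe40 (0.21) there and Tef (0.65), Nfil3 (-0.45), Ciart (1.38) and Usp2 (0.69) in old Fabp4 shRNA against young liver. Under the block, a library whose number occurs in no other group adds nothing to the comparisons. The old Fabp4 shRNA estimates of this fit therefore rest on replicate 1 alone, the liver that lay near the young ones for Tef, Nfil3 and Usp2. Nothing is read from the calls and reversals under the block. Genes with few reads (Ciart, Bhlhe41 and Dbp in several old livers) are limited by depth.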

Other observations

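Over the 6 old livers alone, a choice made after seeing the data, the genes nearest in profile to Noct were Gm19605 (root-mean-square log2 difference 0.12), Snora20 (0.18), Cyp2d38-ps (0.19), Pkhd1 (0.20), which encodes the fibrocystin of bile duct cilia, and Spry4 (0.21), an inhibitor of receptor tyrosine kinase signalling. None of these 5 was called by edgeR in any of the 3 comparisons. Cyp2d38-ps, the one with the most reads, had 196, 318 and 116 counts in old Fabp4 shRNA livers and 233, 175 and 152 counts in old control livers, against 169, 140 and 108 counts in young livers.

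Upp2, a uridine phosphorylase of liver with a daily rhythm, stood at 622, 23.7 and 38.7 CPM in old Fabp4 shRNA livers and at 85.4, 49.0 and 149 CPM in old control livers, against 346, 611 and 312 CPM in young livers. Elovl3, a fatty acid elongase with a daily rhythm, ran the other way, at 67.8, 343 and 348 CPM in old Fabp4 shRNA livers and at 296, 269 and 117 CPM in old control livers, against 55.1, 52.9 and 133 CPM in young livers. Both genes were picked after their values were seen, and neither was called in any comparison.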
